A study of Homo sapiens with 21 samples.

Results

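The subject is a set of 9 genes that mark the lung epithelial lineage, namely NKX2-1, FOXA1, FOXA2, GATA6, HNF4A, SFTA3, SFTPB, NAPSA and CEBPA, followed across 21 RNA-seq libraries of the PC-9 cell line. The members were listed by symbol, with earlier results of these data known. All 9 of them were found among the 20111 genes of both deposited tables. PC-9 is a human lung adenocarcinoma line that depends on a mutant epidermal growth factor receptor (EGFR). Its genotype was given as EGFR delE746-A750, although the last residue in that label rose by 1 from each sample to the next, up to 770.

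PC-9 cells had been sorted by flow cytometry for 6 rounds, each taking the 5 to 10% of cells with the lowest or the highest EGFR at the surface, to give the EGFR-low and EGFR-high populations. These are populations, not clones, and every label names an EGFR deletion starting at E746, taken here as 1 genotype. In the untreated experiment parental, EGFR-low and EGFR-high cells were harvested 24 h after seeding. In the vorinostat experiment EGFR-low and EGFR-high cells were given DMSO, the solvent, or 1 µM SAHA (vorinostat, a histone deacetylase inhibitor) for 72 h. Each of the 7 groups had 3 replicates, described in the study as independent experiments. The values are FPKM, that is fragments scaled to transcript length and to the library's mapped fragments, so they are levels per length that allow genes to be compared, and the read depth behind them is unknown.

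In the developing lung NKX2-1 is the transcription factor that sets and keeps the lung epithelial fate, and it drives surfactant genes in alveolar type 2 cells. FOXA1 and FOXA2 are related forkhead factors that open chromatin in foregut endoderm and act beside NKX2-1, and GATA6 and CEBPA work in alveolar differentiation. HNF4A is a factor of liver, stomach and gut that lung adenocarcinomas lacking NKX2-1 can use. SFTPB encodes surfactant protein B, NAPSA encodes napsin A, the aspartic protease that processes it, and SFTA3 is a surfactant-associated gene next to NKX2-1. NKX2-1 and napsin A are standard stains for lung adenocarcinoma.

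NKX2-1, SFTA3 and FOXA1 lie on the minus strand of the same arm of chromosome 14, and SFTA3 and NKX2-1 are next to each other. RefSeq (GRCh38.p14) gives NKX2-1 a pair of start sites, and the window around the upstream one of SFTA3 is the same sequence as the window around one of them. The 3 windows of 300 bases below are shown because NKX2-1, SFTA3 and FOXA1 lie near each other and differed between the sorted populations in opposite directions. FOXA2, which differed by more than FOXA1, is named only. Capitals mark matches, on either strand, to TGTTTAC (a forkhead motif), to CTCAAG (an NKX2-1 core) and to GATAA (bound by GATA factors), and no match overlaps another.

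NKX2-1 and SFTA3, shared window, chr14:36519507-36519806, minus strand: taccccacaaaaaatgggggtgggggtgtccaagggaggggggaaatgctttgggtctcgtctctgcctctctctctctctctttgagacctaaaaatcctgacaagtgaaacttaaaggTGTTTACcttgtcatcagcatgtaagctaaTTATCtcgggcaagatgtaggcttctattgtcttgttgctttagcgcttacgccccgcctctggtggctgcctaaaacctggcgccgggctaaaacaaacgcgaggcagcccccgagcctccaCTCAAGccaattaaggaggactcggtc
NKX2-1, other start, chr14:36520183-36520482, minus strand: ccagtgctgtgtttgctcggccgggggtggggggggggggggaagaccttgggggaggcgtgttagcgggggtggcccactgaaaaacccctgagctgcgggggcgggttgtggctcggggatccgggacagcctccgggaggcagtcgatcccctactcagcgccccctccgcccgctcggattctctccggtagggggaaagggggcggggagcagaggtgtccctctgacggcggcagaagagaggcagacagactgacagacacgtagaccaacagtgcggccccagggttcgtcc
FOXA1, chr14:37595200-37595499, minus strand: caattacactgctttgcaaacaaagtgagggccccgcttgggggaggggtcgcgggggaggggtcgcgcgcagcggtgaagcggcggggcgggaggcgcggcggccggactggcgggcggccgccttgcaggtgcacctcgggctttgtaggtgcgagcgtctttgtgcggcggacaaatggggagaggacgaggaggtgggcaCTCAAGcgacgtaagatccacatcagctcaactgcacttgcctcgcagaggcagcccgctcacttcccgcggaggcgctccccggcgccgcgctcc

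The window shared by NKX2-1 and SFTA3 held 1 match to each of the 3 motifs, the other NKX2-1 window held none, and the FOXA1 window held 1 match to CTCAAG. Among 34796 distinct RefSeq promoter windows of this length, 3.42% held TGTTTAC, 12.3% held CTCAAG and 22.8% held GATAA. The shared window was also lower in G and C (52.0%) than the other NKX2-1 window (69.0%) and that of FOXA1 (69.3%). These matches describe the letters only.

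EGFR itself checked the sort. In untreated cells it was at 60.2, 26.5 and 60.6 FPKM in EGFR-low, against 269.1, 160.5 and 243.1 in EGFR-high and 260.9, 120.1 and 243.8 in parental libraries. With DMSO it was at 43.3, 17.7 and 19.3 FPKM in EGFR-low and 83.3, 152.4 and 109.2 in EGFR-high. The labels and EGFR therefore went the same way in both experiments. The epithelial marker EPCAM was between 171.2 and 433.8 FPKM in all 21 libraries. Of 12 measured markers of other cell types, 9 were under 1 FPKM in every library of each experiment, with DCN, a fibroblast gene, listed at 0 in all, while COL1A1, a collagen gene of fibroblasts, CD68, a macrophage gene, and CDH5, an endothelial cadherin, passed 1 FPKM in every library.

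A pair of libraries of the vorinostat experiment stood apart, and both bear on the members. Their levels were described with 2 sets of other genes that separate the DMSO populations, members left out. The sets were chosen with these libraries already known, since each ceiling of 0.1 FPKM left out the one concerned. The first set held 70 genes at 5 FPKM or more in each EGFR-low DMSO library and at most 0.1 FPKM in EGFR-high DMSO replicates 1 and 2. In EGFR-high DMSO replicate 3, whose values did not enter that choice, their median level was 27.8% of the EGFR-low DMSO mean (quartiles 24.4% and 30.8%), and in EGFR-high SAHA replicate 1 it was 2.63%. The second set held 50 genes at 5 FPKM or more in each EGFR-high DMSO library and at most 0.1 FPKM in EGFR-low DMSO replicates 2 and 3. Their median level in EGFR-low DMSO replicate 1 was 21.5% of the mean of EGFR-high DMSO replicates 1 and 2 (quartiles 19.0% and 24.0%).

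The same 2 libraries held traces of leukocyte genes. PTPRC, the common leukocyte antigen, was at 0.81 FPKM in EGFR-low DMSO replicate 1 and 0.20 in EGFR-high DMSO replicate 3, and CD3E, a T cell receptor subunit, was at 0.94 and 0.29. In every other library PTPRC was at most 0.052 FPKM and CD3E at most 0.045. The summed level of all 12 measured markers of other cell types ranged from 19.6 to 30.7 FPKM in EGFR-low DMSO and from 30.1 to 39.0 in EGFR-high DMSO. Since 9 of the 12 were under 1 FPKM in every library, this sum could not show traces of that size. Each member's difference in the DMSO comparison is given with and without these 2 libraries.

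**Figure D1:**
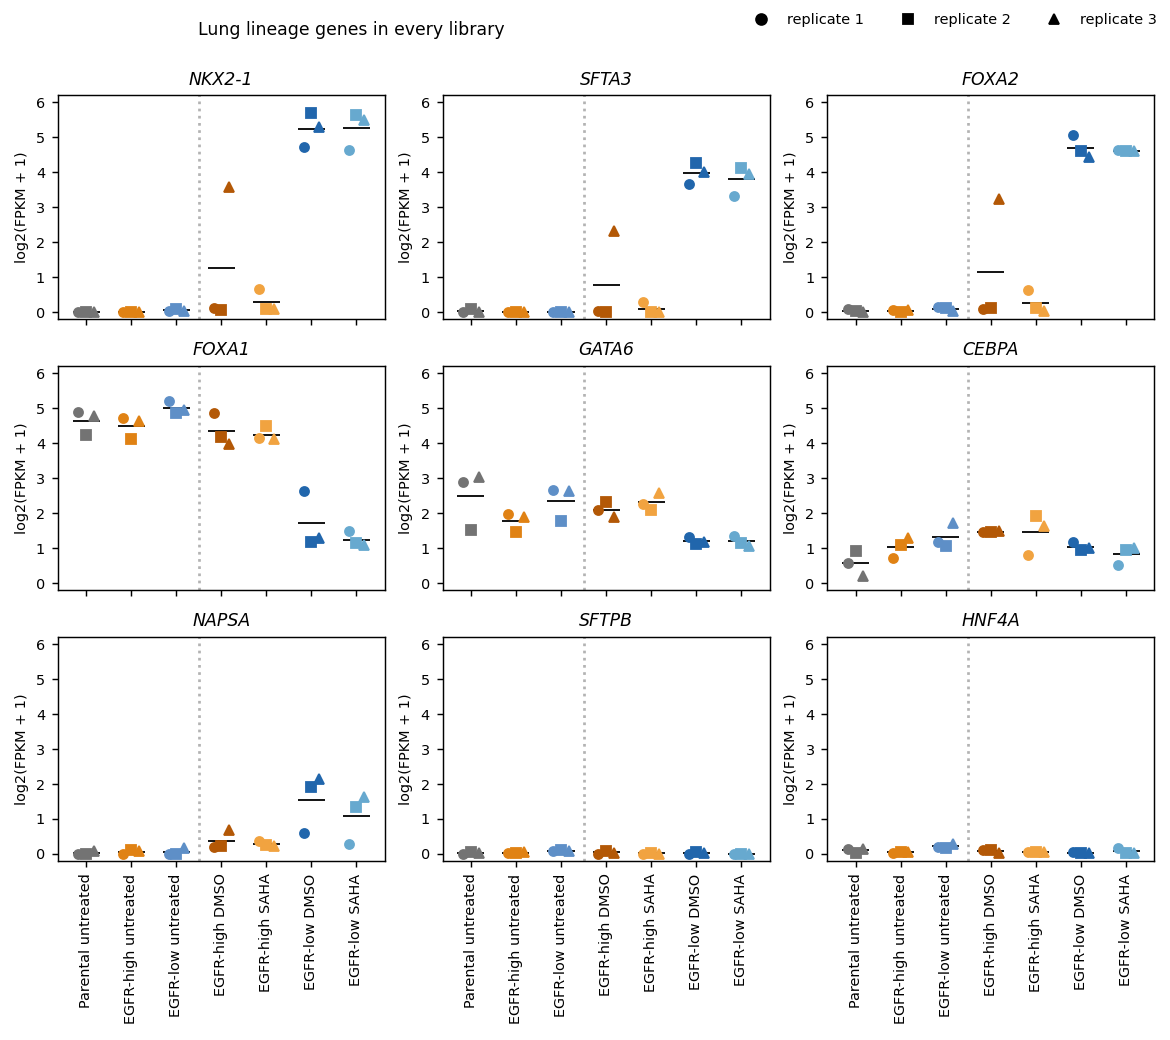
Levels of the 9 lung lineage genes in each of the 21 libraries, as log2(FPKM + 1) on the vertical axis, by group on the horizontal axis, with a bar at each group mean and a marker shape for each replicate. The dotted line separates the untreated from the vorinostat experiment, whose tables were normalised separately. NKX2-1, SFTA3 and FOXA2 lie near 0 in all untreated libraries and are high in all 6 EGFR-low libraries of the vorinostat experiment, where FOXA1 and GATA6 are low.

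Untreated PC-9 cells expressed FOXA1, GATA6 and, at a lower level, CEBPA, and the other 6 members stayed under 1 FPKM. FOXA1, the forkhead factor, was at 28.5, 17.7 and 26.3 FPKM in parental cells, 25.1, 16.3 and 24.0 in EGFR-high cells and 35.7, 27.8 and 29.7 in EGFR-low cells. All 3 EGFR-low libraries were above all EGFR-high ones, while parental cells overlapped both. GATA6 was at 6.40, 1.85 and 7.21 FPKM in parental, 2.93, 1.75 and 2.71 in EGFR-high and 5.28, 2.44 and 5.16 in EGFR-low cells. The groups overlapped, and replicate 2 was the lowest in each.

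CEBPA, a CCAAT-binding factor of alveolar maturation, reached 1 FPKM in 5 of the 9 untreated libraries. It was at 0.50, 0.88 and 0.16 FPKM in parental, 0.64, 1.11 and 1.45 in EGFR-high and 1.25, 1.08 and 2.31 in EGFR-low cells. Every EGFR-low library was above every parental one, as in 17.1% of all genes tested with either sign, and EGFR-high cells overlapped both.

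The factor that defines the lung lineage was at or near 0. NKX2-1 was at most 0.069 FPKM in the 9 untreated libraries and listed at 0 in 4 of them. SFTA3 was listed at 0 in 8 of 9 libraries and at 0.061 FPKM in the other. FOXA2 reached at most 0.11, SFTPB 0.073 and NAPSA 0.12 FPKM. HNF4A was at 0.15, 0.14 and 0.22 FPKM in EGFR-low, 0.021, 0.049 and 0.038 in EGFR-high and 0.11, 0.027 and 0.11 in parental cells. The EGFR-low values of HNF4A were all above the others, at levels well under 1 FPKM. Of all genes tested, 20.6% did not overlap between EGFR-low and EGFR-high cells and 17.1% between EGFR-low and parental cells, with either sign. HNF4A was not among the genes tested, and no such share was taken for genes at its level.

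The members were compared with limma on log2(FPKM + 1), fitted across all genes at 1 FPKM or more in at least 3 libraries of an experiment, with Benjamini-Hochberg adjusted p-values over all of them. A member was called at an adjusted p under 0.05. In the untreated experiment 3 of 9 members, FOXA1, GATA6 and CEBPA, passed the filter. None of the 3 was called in EGFR-low against EGFR-high cells, where 3.81% of 11305 genes were called. None was called in EGFR-low against parental (1.6% of genes) or EGFR-high against parental cells (0.0708%). At an unadjusted p under 0.05 the counts were 0, 1 and 0 of 3.

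For FOXA1 the EGFR-low minus EGFR-high difference was 0.51 on the log2(FPKM + 1) scale (SE 0.27, limma adjusted p = 0.47), a ratio of means of 1.43. Under the 7 alternatives other than leaving a library out, its limma adjusted p was between 0.088 and 0.48. The difference in GATA6 was 0.58 (SE 0.40, limma adjusted p = 0.64) and that in CEBPA 0.29 (SE 0.25, adjusted p = 0.77). Against parental cells CEBPA in EGFR-low cells differed by 0.75 (SE 0.25, limma adjusted p = 0.21). Of the 3 tested members, FOXA1 alone had EGFR-low and EGFR-high groups that did not overlap, as in 20.6% of all genes tested. NKX2-1, HNF4A and SFTPB, near 0 and not tested, did not overlap either. The exact 2-sided permutation p for FOXA1 was 0.1, the smallest that 3 libraries against 3 can give.

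In the vorinostat experiment the same labels went with a different set of lineage factors. EGFR-low cells given DMSO expressed NKX2-1, its neighbour SFTA3 and FOXA2 in every library and had little FOXA1, while EGFR-high cells given DMSO resembled untreated PC-9 in these genes except in replicate 3. Across 11118 genes expressed in both experiments, Spearman's rho of EGFR-low DMSO with untreated EGFR-low libraries was 0.73 to 0.85, and with untreated EGFR-high libraries 0.75 to 0.86. Both ranges include EGFR-low DMSO replicate 1, which stood apart. For EGFR-low SAHA they were 0.73 to 0.78 and 0.74 to 0.79. The rho of EGFR-high DMSO with untreated EGFR-high libraries was 0.89 to 0.95. These are correlations across genes, which are not replicates, and the tables of the experiments were normalised separately, so no level was tested between them. Whether the EGFR-low cells of both experiments were the same population was not tested, so each DMSO and SAHA difference below describes the libraries under those labels.

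NKX2-1 was at 25.6, 51.1 and 37.9 FPKM in EGFR-low DMSO (mean 38.2 ± 12.8, SD, n = 3) and at 0.086, 0.040 and 11.1 FPKM in EGFR-high DMSO. EGFR-high replicates 1 and 2 were near 0, replicate 3 lay in between, and the groups did not overlap. The difference was 3.98 on the log2(FPKM + 1) scale (SE 0.74, limma adjusted p = 0.00114), and without the 2 libraries that stood apart it was 5.41 (SE 0.33, limma adjusted p = 1.12e-06). In EGFR-high DMSO replicate 3 NKX2-1 was at 28.98% of the EGFR-low DMSO mean, within the quartiles of the 70 separating genes.

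SFTA3 followed NKX2-1 at a lower level. It was at 11.7, 18.2 and 15.2 FPKM in EGFR-low DMSO and at 0.014, 0.013 and 3.98 FPKM in EGFR-high DMSO, a difference of 3.20 (SE 0.50, limma adjusted p = 0.000452). Here too EGFR-high replicate 3 lay between the groups, and the difference without the 2 libraries was 4.12 (SE 0.25). In the 7 libraries where both genes reached 1 FPKM, the ratio of SFTA3 to NKX2-1 was between 0.33 and 0.46, and in EGFR-high DMSO replicate 3 it was 0.36. The genes are next to each other on the same strand and share a RefSeq start window, and whether the files' values count shared transcripts for both was not tested.

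FOXA2 was at 32.4, 23.2 and 20.8 FPKM in EGFR-low DMSO and at 0.066, 0.077 and 8.40 FPKM in EGFR-high DMSO. The difference was 3.56 (SE 0.64, limma adjusted p = 0.000925), and 4.43 (SE 0.20) without the 2 libraries. In EGFR-high DMSO replicate 3 FOXA2 was at 33.0% of the EGFR-low DMSO mean, above the upper quartile of the 70 separating genes (30.8%). FOXA2 differed from NKX2-1 within EGFR-low DMSO, being highest in replicate 1 where NKX2-1 and SFTA3 were lowest.

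FOXA1 went the opposite way from FOXA2. It was at 5.23, 1.27 and 1.47 FPKM in EGFR-low DMSO and at 28.1, 17.1 and 14.8 FPKM in EGFR-high DMSO, with no overlap. The difference was -2.63 (SE 0.35, limma adjusted p = 0.000327), and -3.28 (SE 0.25) without the 2 libraries. EGFR-low DMSO replicate 1, the highest of its group, stood at 23.1% of the mean of EGFR-high DMSO replicates 1 and 2, close to the 21.5% of the second set of separating genes. In EGFR-low DMSO replicates 2 and 3 FOXA1 stayed above 1 FPKM, whereas the genes of that set were chosen for values of at most 0.1 FPKM there.

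GATA6 was lower in EGFR-low DMSO, at 1.47, 1.15 and 1.25 FPKM, than in EGFR-high DMSO, at 3.27, 3.94 and 2.68 FPKM. The groups did not overlap, and the difference was -0.90 (SE 0.16, limma adjusted p = 0.000991), and -1.06 (SE 0.19) without the 2 libraries. CEBPA was at 1.27, 0.91 and 1.02 FPKM in EGFR-low DMSO and 1.73, 1.74 and 1.83 in EGFR-high DMSO, also without overlap, but its difference of -0.43 was not called (SE 0.25, limma adjusted p = 0.17), nor was that of -0.48 without the 2 libraries (SE 0.32, limma adjusted p = 0.24).

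Of the surfactant genes among the members, NAPSA and SFTA3 were measured above 1 FPKM and SFTPB was not. NAPSA encodes the protease napsin A. Its level was 0.52, 2.76 and 3.41 FPKM in EGFR-low DMSO and at 0.16, 0.17 and 0.62 FPKM in EGFR-high DMSO, and the groups overlapped through EGFR-low replicate 1. The difference was 1.18 (SE 0.40, limma adjusted p = 0.0272). The call was lost when EGFR-low replicate 2 or 3 or EGFR-high replicate 1 or 2 was left out (limma adjusted p between 0.080 and 0.12), and without the 2 libraries that stood apart the difference was 1.81 (SE 0.35, limma adjusted p = 0.00190). SFTPB, which napsin A processes, was at most 0.070 FPKM in all 12 vorinostat libraries, and HNF4A at most 0.12, with NKX2-1 present or absent. Neither passed the filter.

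In all, 6 of the 7 tested members were called in EGFR-low against EGFR-high DMSO, 4 higher and 2 lower, where 51.8% of 12236 genes were called, 31.1% higher and 20.7% lower. The groups did not overlap in 6 of the 7 tested members, as in 69.3% of all genes tested. The median difference over tested members was 1.18 and that over all tested genes 0.12. NKX2-1, FOXA2 and SFTA3 passed the filter only through EGFR-low libraries and the intermediate EGFR-high DMSO replicate 3, and NAPSA only through EGFR-low libraries, so their being tested and their direction are tied. Under median-of-ratios scaling the median over all genes moved from 0.12 to 0.020 in DMSO and from 0.16 to 0.014 in SAHA, and all called members kept their direction. That scaling moved the share of higher calls over all genes from 61.3% to 50.9% in SAHA. In these bulk samples fewer cells with a transcript and less of it per cell cannot be told apart.

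With SAHA NKX2-1, SFTA3 and FOXA2 were again higher and FOXA1 and GATA6 lower in EGFR-low cells. NKX2-1 was at 24.1, 48.7 and 43.8 FPKM in EGFR-low SAHA and at 0.59, 0.062 and 0.067 FPKM in EGFR-high SAHA, a difference of 4.97 (SE 0.74, limma adjusted p = 0.000173). FOXA2 was at 23.7, 23.5 and 23.5 FPKM against 0.54, 0.092 and 0.032, a difference of 4.35 (SE 0.64, limma adjusted p = 0.000156). SFTA3 was at 8.99, 16.3 and 14.6 FPKM in EGFR-low and at 0.23 or less in EGFR-high SAHA. No library of one population reached the other for any of these 3 genes, and EGFR-high SAHA replicate 1, at 2.63% by the first set of separating genes, was the highest of its group for each.

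FOXA1 was at 1.81, 1.19 and 1.15 FPKM in EGFR-low SAHA and 16.6, 21.4 and 16.3 in EGFR-high SAHA, a difference of -3.00 (SE 0.35, limma adjusted p = 4.84e-05). GATA6 was at 1.53, 1.23 and 1.103 against 3.81, 3.25 and 4.94 FPKM, a difference of -1.12 (SE 0.16, limma adjusted p = 0.000154). Both were lower in every EGFR-low library than in any EGFR-high one. CEBPA was at 0.43, 0.94 and 0.99 against 0.73, 2.81 and 2.08 FPKM, and its difference of -0.63 was called with an adjusted p close to the threshold (SE 0.25, limma adjusted p = 0.0461). That call was lost in 5 of the 6 fits that left out one of the compared libraries, with limma adjusted p between 0.058 and 0.19, and also without the 2 libraries that stood apart (limma adjusted p = 0.0615).

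NAPSA was at 0.21, 1.56 and 2.08 FPKM in EGFR-low SAHA and 0.30, 0.20 and 0.17 in EGFR-high SAHA, and its difference of 0.79 was not called (SE 0.40, limma adjusted p = 0.11). It was called with the replicate number as a block (limma adjusted p = 0.0480), without EGFR-low SAHA replicate 1 (0.0187) and without the 2 libraries that stood apart (0.0368). As in DMSO, EGFR-low replicate 1 was far below replicates 2 and 3 for NAPSA. Mitochondrial genes made up 22.2% of the summed FPKM in EGFR-low SAHA replicate 1 and 24.2% in EGFR-high SAHA replicate 1. In the other SAHA libraries their share was 7.27% to 12.4%, and in EGFR-low DMSO replicate 1 it was 7.80%. Whether this share bears on NAPSA or CEBPA was not tested. Across the members 6 of 7 tested were called, 3 higher and 3 lower, where 59% of all genes were called, 36.2% higher and 22.8% lower. The groups did not overlap in 5 of the 7, as in 60.8% of all genes tested.

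SAHA against DMSO called no member in either population, and no gene at all among 12236 (0% called) with limma. Whether the drug acted in these libraries was not tested, so the lack of calls does not show that the members failed to respond. The study reports that vorinostat raised EGFR protein. Mean EGFR here was at 18.0 FPKM in EGFR-low SAHA and 26.8 in EGFR-low DMSO, and at 168.1 and 115.0 in EGFR-high cells, and neither difference was called. At an unadjusted p under 0.05 there were 115 genes in EGFR-low and 409 in EGFR-high cells, and 0 of the 7 tested members in each. In EGFR-low cells the NKX2-1 difference was 0.016 with a 95% interval from -1.61 to 1.65, and that of FOXA2 was -0.086 with an interval from -1.49 to 1.32. These intervals rest on the libraries that stood apart, without which the SE fell from 0.74 to 0.30 for NKX2-1 and from 0.64 to 0.18 for FOXA2. For GATA6 the interval was narrower, from -0.36 to 0.35.

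Several of these small differences rested on the libraries that stood apart. In EGFR-high cells NKX2-1 differed by -0.97 between SAHA and DMSO (SE 0.74, limma adjusted p = 0.94), and without the 2 libraries by 0.19 (SE 0.30). FOXA2 likewise went from -0.88 to 0.17 and SFTA3 from -0.68 to 0.083. In EGFR-low cells FOXA1 differed by -0.47 (SE 0.35), and without the 2 libraries by -0.00012 (SE 0.23). The response to SAHA in EGFR-low minus that in EGFR-high cells, tested as an interaction, was called for no gene of 12236 (0%, with 215 at an unadjusted p under 0.05), nor for any member.

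**Figure D2:**
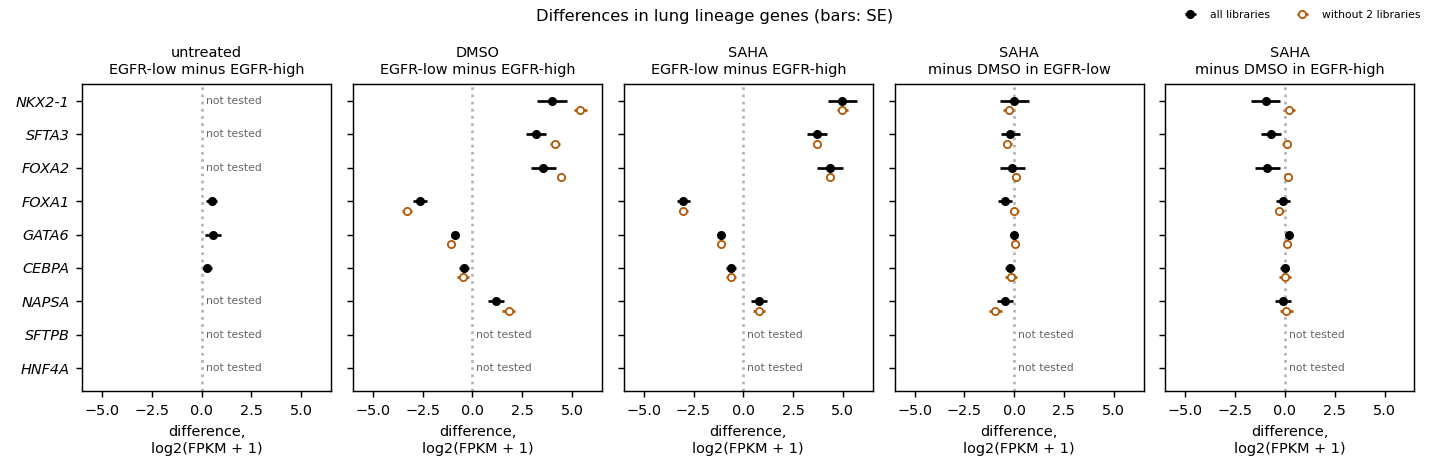
Difference of each lung lineage gene in 5 comparisons on the log2(FPKM + 1) scale, with bars for the SE, over all libraries (filled) and without EGFR-high DMSO replicate 3 and EGFR-low DMSO replicate 1 (open). NKX2-1, SFTA3 and FOXA2 lie to the right and FOXA1 and GATA6 to the left of 0 in the 2 comparisons of EGFR-low with EGFR-high cells of the vorinostat experiment, and the members scatter around 0 in the SAHA comparisons.

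Genes that sit around NKX2-1 and FOXA1 on chromosome 14 were compared next. In DMSO 6 of the 9 other listed neighbours were tested and 5 were called, all of them higher in the EGFR-low population, beside 51.8% of all genes called and 31.1% called higher. Of these, NKX2-8, PAX9 and SLC25A21 reached 1 FPKM in at most 2 EGFR-high libraries, so that they were tested through the EGFR-low libraries, which tied their direction to the filter. Over all 6 tested neighbours the median difference was 1.22, against 0.12 over all genes. PAX9, a paired box factor of foregut endoderm, was at 10.7, 12.9 and 13.1 FPKM in EGFR-low DMSO and 0.51, 0.71 and 4.27 in EGFR-high DMSO, a difference of 2.46 (SE 0.37, limma adjusted p = 0.000393). MBIP, a kinase-binding protein gene beside SFTA3, was at 22.5, 23.1 and 20.0 against 5.70, 6.79 and 11.8 FPKM. MIPOL1, which lies between PAX9 and FOXA1, was at 11.1, 12.3 and 12.4 against 3.47, 3.604 and 6.83 FPKM. NKX2-8, an NK2 homeobox gene next to NKX2-1, was at 1.74, 2.41 and 2.45 against 0.18, 0.23 and 0.86 FPKM. In each, EGFR-high replicate 3 was the highest of its group.

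The direction changed at FOXA1. MIPOL1 was 1.25 higher in EGFR-low DMSO (SE 0.20, limma adjusted p = 0.000489) while FOXA1, its next listed neighbour, was lower. TTC6, which overlaps the 5′ end of FOXA1 on the opposite strand, did not pass the filter there and was at 0.13, 0 and 0.0034 FPKM in EGFR-low DMSO and 0.70, 0.35 and 0.46 in EGFR-high DMSO. With SAHA all 6 tested neighbours were called higher in EGFR-low cells, where 36.2% of all genes were. For NKX2-8, PAX9 and SLC25A21 the direction was tied to the filter here too, since they were tested through the EGFR-low libraries. In untreated EGFR-low against EGFR-high cells, where 3.81% of all genes were called, PAX9 was the only neighbour of 5 tested that was called. It was at 1.66, 1.09 and 1.43 FPKM in EGFR-low and 0.50, 0.26 and 0.48 in EGFR-high cells, a difference of 0.76 (SE 0.17, limma adjusted p = 0.0338). Between these groups PAX9 reached 1 FPKM only in EGFR-low libraries, which ties its direction to the filter.

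The alveolar type 2 genes were called in both directions. Of 17 listed markers other than the members, 10 were under 1 FPKM in every vorinostat library and 6 were tested, of which 3 were called in DMSO, 2 higher and 1 lower in EGFR-low cells, beside 51.8% of all genes. With SAHA 4 of the 6 were called, 3 higher and 1 lower, beside 59%, with a median difference of 0.61, against 0.16 over all genes. ABCA3, the lipid transporter of lamellar bodies, was at 6.15, 9.07 and 9.46 FPKM in EGFR-low and 1.76, 4.01 and 4.65 in EGFR-high DMSO, a difference of 1.09 (SE 0.24, limma adjusted p = 0.00324). LPCAT1, which makes the phospholipid of surfactant, was at 91.2, 134.4 and 126.9 against 41.3, 44.4 and 79.5 FPKM. SLPI, a secreted protease inhibitor, was at 43.4, 33.7 and 28.02 against 126.7, 116.8 and 105.9 FPKM, a difference of -1.72 (SE 0.39, limma adjusted p = 0.00334).

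The surfactant protein genes themselves stayed near 0. SFTPC was listed at 0 in all 3 EGFR-low DMSO libraries, SFTPA1 was at most 0.038 and SFTPA2 at most 0.19 FPKM there, and SFTPD at most 0.056. SLC34A2, the phosphate transporter of type 2 cells, was at 0.064, 0.16 and 0.27 FPKM. LYZ, which is also a myeloid gene, was at 7.28 FPKM in EGFR-low DMSO replicate 1 and 2.76 in EGFR-high DMSO replicate 3, the libraries with PTPRC, and at most 0.54 in the other 10.

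Other lung epithelial factors moved both ways. Of 21 listed, 18 were tested in DMSO and 15 called, 9 higher and 6 lower in EGFR-low cells, beside 51.8% of all genes called, and the median difference was 0.34, against 0.12 over all genes. EHF, an epithelial ETS factor, was at 15.9, 0.96 and 1.09 FPKM in EGFR-low and 59.6, 73.0 and 53.4 in EGFR-high DMSO, a difference of -3.93 (SE 0.62, limma adjusted p = 0.000466). ELF3, its relative, went the other way, with 65.0, 58.7 and 105.5 FPKM in EGFR-high and 209.7, 221.9 and 196.5 in EGFR-low DMSO. ID2, a marker of the developing lung tip, was at 1.65, 12.8 and 8.53 against 0.054, 0.080 and 1.94 FPKM. Both ID2 and IRX5 passed the filter through EGFR-low libraries, which ties their direction to the filter. SOX9, also a tip factor, was at 9.92, 5.73 and 4.01 against 29.1, 28.1 and 25.4 FPKM. In untreated cells 15 of these factors were tested and none was called, with EHF between 61.2 and 111.7 FPKM in all 9 libraries.

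Of 15 listed foregut and gut factors 2 were tested in DMSO, SOX2 and ONECUT2, and both were called, beside 51.8% of all genes. SOX2 passed the filter through EGFR-low libraries and ONECUT2 through EGFR-high ones, which ties their direction to the filter. SOX2 was at 50.2, 107.2 and 77.6 FPKM in EGFR-low DMSO and 0.12, 0.23 and 15.6 in EGFR-high DMSO, a difference of 4.74 (SE 0.81, limma adjusted p = 0.000698), and again EGFR-high replicate 3 lay in between. In untreated EGFR-low cells SOX2, a factor of the proximal airway, was at 0.30, 1.19 and 0.33 FPKM. ONECUT2 was lower in EGFR-low DMSO, by 0.82, and the other 13 of 15 listed factors, among them CDX2 and GATA4, were under 1 FPKM in every vorinostat library.

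Airway and basal markers were called in both directions, in a comparison that called 51.8% of all genes. In DMSO all 5 tested airway genes were called, 2 higher (FOXJ1, the ciliary factor, and TPPP3) and 3 lower (CAPS, SPDEF and MUC5B) in EGFR-low cells. FOXJ1 was at 1.27, 1.66 and 1.60 FPKM in EGFR-low and 0.045, 0.035 and 0.49 in EGFR-high DMSO. All 6 tested basal and squamous genes were called, 3 higher (SOX2, PAX9 and TP63) and 3 lower (KRT5, SERPINB5 and KRT15). TP63, the basal cell factor, was at 10.1, 5.46 and 9.42 against 0.11, 0.098 and 5.39 FPKM, while KRT5, the basal keratin, was at 3.44, 0.054 and 0.026 against 14.6, 12.001 and 10.6 FPKM. FOXJ1, TPPP3, SOX2, PAX9 and TP63 passed the filter through EGFR-low libraries, and SPDEF, MUC5B and KRT5 through EGFR-high ones, which ties their direction to the filter. KRT5 was also called in the untreated experiment, where the EGFR-low minus EGFR-high difference was -2.58 (SE 0.55, limma adjusted p = 0.0232).

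In the same comparison alveolar type 1 genes had 3 of 8 tested called, under the share over all genes, HOPX and CAV2 higher and SCNN1A lower in EGFR-low cells. Of the 10 genes listed with the neuroendocrine and tuft factors 2 were tested. YAP1, listed with these factors but itself neither, was called lower, and the other was not called. General epithelial markers had 6 of 10 called, near that share, 3 higher (ELF3, CDH1, CLDN4) and 3 lower (KRT8, KRT19, KRT18). None of the 3 tested markers of other cell types was called.

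Genes whose pattern was most like a member were ranked by the smaller of 2 Pearson correlations, over the 9 untreated and the 12 vorinostat libraries. For FOXA1 they were KIAA1244 (r = 0.96 and 0.97), AKAP12 (0.95 and 0.95) and FAM83B (0.94 and 0.96). For GATA6 they were ATP2B1 (0.96 and 0.96), NCBP2 (0.95 and 0.97) and HDAC2 (0.94 and 0.95), and for CEBPA SHROOM1 (0.93 and 0.96), NINJ1 (0.93 and 0.93) and RXRB (0.96 and 0.92). The vorinostat libraries fall into the EGFR-low and EGFR-high populations, so r over 12 libraries mostly describes that split. For NKX2-1, with no untreated level to rank, the nearest genes over the 12 libraries, chosen after their values were seen, were PRAME, PLEKHS1 and SOX2, each with r above 0.99.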

How the data were processed

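RNA-seq of 21 PC-9 libraries in 7 groups of 3 was analysed from the 2 deposited tables, 1 for each experiment. The authors deposited normalised FPKM values for 20111 genes, with no counts; the unit was taken from the values, since the tables do not name it. The submitters' processing notes list STAR 2.5.1b, Cufflinks 2.2.1, DESeq2 1.10.1 and the build hg19, without roles, and the strand setting of the polyA (Kapa mRNA Hyper Prep) libraries is not given in the sources used here. Reads of antisense or overlapping genes (NKX2-1-AS1, GATA6-AS1, HNF4A-AS1, TTC6) may therefore fall on members, and NAPSA has a paralogous pseudogene, NAPSB. The FPKM summed to 467897 to 592942 per library.

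The values were fitted in R 4.3.3 with limma 3.58.1, with trend, on log2(FPKM + 1) for genes at 1 FPKM or more in at least 3 libraries, 1 fit for each experiment, with p-values adjusted by Benjamini-Hochberg over all genes tested. The design gave 8 comparisons. With 3 libraries against 3 the exact two-sided permutation test cannot go below 0.1. Alternatives were a pseudocount of 0.1 or 5, no filter, quantile normalization, median-of-ratios scaling, the replicate block, the compared groups alone, each replicate left out and, added later, the 2 libraries standing apart left out. Same-numbered replicates were checked by the correlation of their deviations from the group means, and all 3 were above 0.1 in 3 of 7 pairs of groups (the numbers come from the labels). The fit was tested on simulated data. P-values measure the spread between replicates, stated by the study to be separate experiments.

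The members and lists were chosen with earlier results of these data known. All 9 members are named. From each other list up to 4 called genes with the largest difference and up to 4 with the highest level could be named, with members at 0, EGFR as the check of the sort, and for members tested in both experiments the 3 genes most like them. Other genes named (PTPRC, CD3E, LYZ, DCN, TTC6 and the genes of the separating sets) were picked after their values were seen. Promoter windows come from RefSeq on GRCh38.p14, matched by symbol for 8 of 9 members; FOXA2 had none. No gene coordinates on hg19 were used here.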

Additional observations from a re-analysis of the deposited data

Results flagged for a closer look

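The FOXA1 difference between EGFR-low and EGFR-high libraries had opposite signs in the 2 experiments, with no overlap of the groups in either, as in 20.6% of untreated and 69.3% of DMSO genes tested. The untreated difference was not called (limma adjusted p = 0.47, and between 0.088 and 0.48 under the 7 alternatives other than leaving a library out). In untreated cells the EGFR-low mean minus the EGFR-high mean was 9.27 FPKM, and in DMSO it was -17.3 FPKM. The tables were normalised separately, so the difference between the experiments was not tested.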

How the results depend on the processing

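Values are differences on the log2(FPKM + 1) scale unless counts are named. The number of members called stayed within 1.5 times that reported under all alternatives run, with 1 exception. Without a filter on low values 1 member, HNF4A, was called in untreated EGFR-low against EGFR-high cells (0.17, limma adjusted p = 0.0447). With the filter 0 of the 3 tested members were called there. Without it 3.99% of 16538 genes were called, and HNF4A was at most 0.22 FPKM in the untreated libraries. In EGFR-low against EGFR-high cells the count was 5 to 6 of those tested in DMSO and 5 to 7 in SAHA. The alternatives called 39.0% to 57.4% of all genes in DMSO and 46.3% to 62.4% in SAHA. No member changed direction in these comparisons under any alternative. NAPSA in DMSO lost its call without a filter (limma adjusted p = 0.0514) and with quantile normalization (0.0665), and CEBPA in SAHA with a pseudocount of 0.1 (0.0586), without a filter (0.0666) and without the 2 libraries standing apart (0.0615), an alternative chosen after seeing the data. CEBPA in DMSO gained a call when only the compared groups were fitted (limma adjusted p = 0.0282), and NAPSA in SAHA gained one without the 2 libraries (0.0368). Fitting only the compared groups gave no value for a member that then failed the filter, NAPSA in both and CEBPA in SAHA. All sign changes were in members not called, in SAHA against DMSO, in the interaction or against parental cells. In EGFR-low cells GATA6 went to 0.054 with quantile normalization and 0.0040 with median-of-ratios scaling. In EGFR-high cells NAPSA went to 0.084 with quantile normalization, and CEBPA to 0.010 with a pseudocount of 5, 0.024 with quantile normalization and 0.0030 with median-of-ratios scaling. Without the 2 libraries standing apart, SAHA against DMSO in EGFR-low cells gave -0.24 for NKX2-1, 0.093 for FOXA2 and 0.051 for GATA6, and in EGFR-high cells 0.19 for NKX2-1, 0.17 for FOXA2, 0.083 for SFTA3 and 0.074 for NAPSA. The interaction then was -0.43 for NKX2-1, 0.27 for FOXA1, -0.072 for FOXA2 and -0.43 for SFTA3. The cause of these changes was not tested.

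Leaving out each replicate in turn, the ranges that crossed 0 were as follows. Against parental cells GATA6 in EGFR-low ranged from -0.61 to 0.16 and FOXA1 in EGFR-high from -0.34 to 0.051. For SAHA against DMSO in EGFR-low cells NKX2-1 ranged from -0.24 to 0.32, FOXA2 from -0.21 to 0.093, GATA6 from -0.080 to 0.054 and SFTA3 from -0.34 to 0.055. In EGFR-high cells the ranges were -1.57 to 0.19 for NKX2-1, -0.27 to 0.17 for FOXA1, -1.41 to 0.17 for FOXA2, -1.07 to 0.083 for SFTA3, -0.17 to 0.074 for NAPSA and -0.26 to 0.31 for CEBPA. In the interaction they were -0.18 to 1.59 for NKX2-1, -0.63 to 0.094 for FOXA1, -0.25 to 1.32 for FOXA2, -0.27 to 0.88 for SFTA3, -0.86 to 0.021 for NAPSA and -0.53 to 0.041 for CEBPA.

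Replicate numbers were shared between groups. Same-numbered libraries deviated together, with every correlation above 0.1, in untreated EGFR-low against EGFR-high, in SAHA EGFR-low against EGFR-high and in SAHA against DMSO in EGFR-low cells. When the fit held the replicate block, the count of members called was 0 in the first and last of these. It was 7 in SAHA EGFR-low against EGFR-high, where NAPSA was added, and the block changed no other call of a member. With the block 8.54% of all genes were called in the first, 62.4% in SAHA EGFR-low against EGFR-high and 0% in the last. Over all genes the block moved the calls of untreated EGFR-low against EGFR-high from 431 to 965 and those against parental from 181 to 525. Depth is unknown, so no limit of detection can be given.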
